A study of Homo sapiens with 49 samples.

Results

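The MHC class II presentation pathway was followed at the RNA level through 10 genes in 6 human cell lines, all derived from diffuse large B-cell lymphoma, a fast-growing cancer of B lymphocytes. The members were CIITA, RFX5, RFXAP, RFXANK, CD74, HLA-DRA, HLA-DPA1, HLA-DMA, HLA-DMB and HLA-DOB, taken by name from the 19775 genes that had an array probe set annotated to that gene alone. They were measured by 20 such probe sets, and each gene was read from whichever of its probe sets averaged highest across the 49 arrays. The values were log2 intensities, so that a difference of 1 is a 2-fold change.

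The lines were U2932, RIVA, OCI-Ly7, FARAGE, SU-DHL-5 and NU-DHL-1. They were exposed to the anthracycline doxorubicin, a DNA intercalator and topoisomerase II poison, at 2.5 µg/mL (the high dose) or 0.00061 µg/mL (the low dose), or left untreated. Untreated arrays covered all 6 lines at 0, 2 and 12 h but 3 at 48 h (U2932, RIVA and OCI-Ly7). The low dose had 6, 6 and 3 arrays at 2, 12 and 48 h. At the high dose every line had an array at 2 h, 5 had one at 12 h (SU-DHL-5 was lacking) and 2 had one at 48 h (U2932 and RIVA). Every combination of line, dose and time had at most 1 array. Lines therefore served as replicates, and the labels do not say that a line was cultured more than once. The p-values therefore measure the spread between lines, and at 48 h the high-dose fit had only 2 lines.

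MHC class II molecules are pairs of an alpha and a beta chain that carry peptides from the endosomal pathway to the cell surface, where CD4+ T cells read them; mature B cells express them constitutively. Their promoters share an X box and a Y box. The trimer of RFX5, RFXAP and RFXANK binds the X box, the NF-Y factor binds the Y box, and the coactivator CIITA docks on this platform without binding DNA itself. Inherited loss of CIITA or of any RFX subunit causes bare lymphocyte syndrome, in which cells have little or no class II on their surface. The invariant chain CD74 escorts new class II molecules to the endosome, HLA-DM (HLA-DMA with HLA-DMB) exchanges its last fragment for peptide, and HLA-DO, which contains HLA-DOB, restrains HLA-DM.

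Per RefSeq (GRCh38.p14), 5 members lie in the MHC region of chromosome 6: HLA-DRA at chr6:32439887-32445046, HLA-DOB at chr6:32812763-32817002, HLA-DMB at chr6:32934636-32941028, HLA-DMA at chr6:32948618-32953097 and HLA-DPA1 at chr6:33064569-33080748. CIITA spans chr16:10866206-10943021, RFX5 chr1:151340640-151347252, RFXAP chr13:36819222-36829104, RFXANK chr19:19192258-19201866 and CD74 chr5:150401639-150412910.

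RefSeq promoter windows (250 bases before to 50 after the start site, GRCh38.p14) were at hand for 8 of the 10 members, CIITA and HLA-DRA not among them. Those of CD74, HLA-DMA, HLA-DMB and HLA-DOB are shown because these genes are known targets of the same factors and their responses to the drug differed. Each line below runs 5′ to 3′ on the minus strand, from position -140 to -16 relative to the start site. Capitals mark ATTGG (the Y box core), CCTAG (the start of the X box) or CTGATGATG, on either strand; neighbouring or overlapping matches run together.
CD74, chr5:150412926-150413050: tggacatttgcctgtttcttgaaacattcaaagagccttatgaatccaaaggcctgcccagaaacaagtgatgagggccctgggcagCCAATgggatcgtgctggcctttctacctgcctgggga
HLA-DMA, chr6:32953113-32953237: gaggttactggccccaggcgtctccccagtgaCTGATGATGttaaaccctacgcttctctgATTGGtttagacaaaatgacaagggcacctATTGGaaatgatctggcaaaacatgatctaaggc
HLA-DMB, chr6:32941044-32941168: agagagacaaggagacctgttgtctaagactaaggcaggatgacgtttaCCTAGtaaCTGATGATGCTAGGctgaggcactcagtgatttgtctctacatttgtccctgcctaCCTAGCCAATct
HLA-DOB, chr6:32817018-32817142: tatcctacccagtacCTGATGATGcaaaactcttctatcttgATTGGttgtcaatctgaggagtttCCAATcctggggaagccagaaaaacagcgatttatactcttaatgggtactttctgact

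ATTGG was found in the windows of 5 members (RFX5, CD74, HLA-DMA, HLA-DMB and HLA-DOB), and 39.7% of the 27305 genes with a window hold it on either strand. CCTAG was found in 3 members (RFX5, CD74 and HLA-DMB), against 36.2% of genes. The longer run CTGATGATG, chosen after these sequences were seen, was found in HLA-DMA, HLA-DMB and HLA-DOB and in 0.326% of genes. Followed by ATTGG on the gene's own strand within 40 bases, it occurred in 4 genes of the whole set, among them HLA-DMA with 20 bases between, HLA-DOB with 18 and HLA-DRB1 with 19. A match is a description of letters in the window and not a measured binding site.

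The first question was how far the lines differed before any drug. HLA-DRA, the alpha chain of HLA-DR, ranged most. Over the untreated 0, 2 and 12 h arrays its level was 4.23 ± 0.28 (SD, n = 3 arrays) in FARAGE, 10.63 ± 0.11 in RIVA, 12.62 ± 0.06 in SU-DHL-5, 12.70 ± 0.07 in U2932, 13.19 ± 0.04 in OCI-Ly7 and 13.75 ± 0.02 in NU-DHL-1. Only SU-DHL-5 and U2932 overlapped. The FARAGE level lay below every array median (4.84 to 5.04) and at that of the T-cell gene CD2 (mean 4.27 untreated), so that it may be background and the distance of FARAGE to the other lines has no measured size. The second HLA-DRA probe set gave the same order, with 3.74 in FARAGE, 9.86 in RIVA and 12.00 to 13.38 in the others. In bulk RNA, fewer cells with the transcript and less transcript per cell cannot be told apart.

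For the other members FARAGE ranked 2 of the 6 lines (from the highest) for CIITA and HLA-DMB, 4 for HLA-DMA and RFXANK, and 5 for CD74, HLA-DOB (7.55 ± 0.41), HLA-DPA1, RFX5 (9.96 ± 0.07) and RFXAP (7.74 ± 0.06). Its CIITA level was 7.18 ± 0.19, after 8.04 ± 0.31 in NU-DHL-1, and SU-DHL-5 had the lowest at 5.44 ± 0.11. Its HLA-DMB level of 10.91 ± 0.07 was also second to NU-DHL-1 (12.06 ± 0.05). Its CD74 level of 10.38 ± 0.13 overlapped those of U2932 (10.58 ± 0.10) and RIVA (10.12 ± 0.18). Among the other class II chains, FARAGE was the lowest line for HLA-DRB1 (6.38 ± 0.14, against 7.97 ± 0.08 in RIVA and at least 11.24 in the other four), HLA-DPB1 (7.31 ± 0.06) and HLA-DQB1 (5.93 ± 0.10). RIVA was the lowest line for HLA-DOA (5.14, with 5.29 in FARAGE), HLA-DQA1 (4.00, with 4.43) and HLA-DRB4 (4.80, with 4.90). The arrays of RIVA and FARAGE overlapped for each of them. U2932 was the lowest for HLA-DQB2 (5.10, with 5.32 in FARAGE). These chains have close paralogs and many alleles, and their values on one probe set are uncertain for that reason.

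The remaining chains and chaperones spread less. HLA-DPA1, the alpha chain of HLA-DP, ran from 9.13 ± 0.05 in RIVA and 10.52 ± 0.08 in FARAGE up to 13.84 ± 0.12 in NU-DHL-1, a range of 4.71 with no overlap between neighbouring lines. The ranges were 2.79 for HLA-DMA, 2.74 for HLA-DOB, 2.61 for CD74, 2.60 for CIITA and 2.48 for HLA-DMB. The RFX subunits ranged least, by 1.71 for RFXAP, 0.99 for RFX5 and 0.73 for RFXANK. NU-DHL-1 was the highest line for CIITA, CD74, HLA-DRA, HLA-DPA1, HLA-DMA and HLA-DMB, and the lowest for HLA-DOB (7.39 ± 0.10), RFXAP (7.39 ± 0.11) and RFXANK (9.09 ± 0.06). HLA-DOB was highest in OCI-Ly7 (10.12 ± 0.18). Across the 6 line means, a small set given as description only, Pearson's r of CIITA was 0.886 with HLA-DMB and -0.055 with HLA-DRA. With HLA-DMA, HLA-DPA1 and CD74 it was 0.582, 0.426 and 0.330. With RFX5, RFXANK, HLA-DOB and RFXAP it was -0.424, -0.465, -0.643 and -0.729. The value for HLA-DRA depends on FARAGE, whose HLA-DRA level lies far below the other lines and may be background. It therefore does not show that CIITA and HLA-DRA are unrelated across the other lines.

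**Figure D1:**
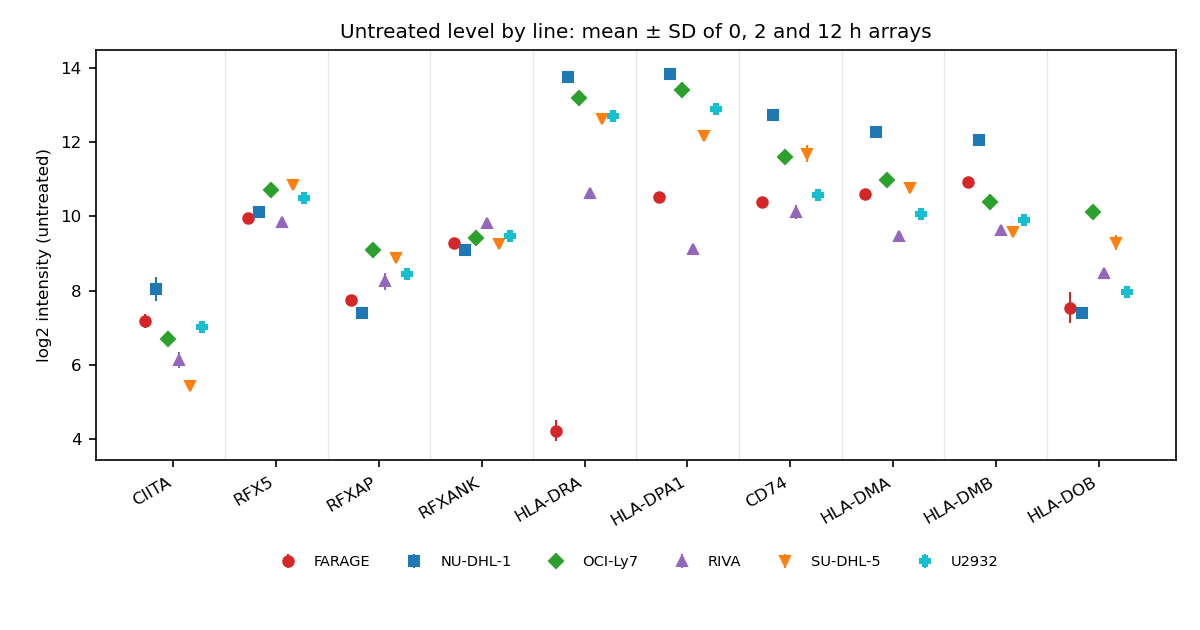
Untreated log2 intensity of the 10 members (horizontal axis) in the 6 lines (colour and symbol); points are means and bars SD of the 0, 2 and 12 h arrays (n = 3 arrays a line). FARAGE stands apart for HLA-DRA at 4.23, with the other lines from 10.63 to 13.75, while the lines lie within 0.73 of each other for RFXANK. Levels of different genes come from different probes and are not comparable with each other.

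The check of the lines against lineage markers used 6 measured B-cell genes (MS4A1, CD79A, CD79B, CD22, PAX5 and BLK). Each lay above the median gene level of 5.83 in its untreated mean, and their mean per untreated array was 10.4 to 11.6. The means of 5 T-cell markers were 4.56 to 4.89 and those of 5 monocyte, macrophage and dendritic-cell markers 4.34 to 5.01. Of the latter only CD1C was above the median gene, at up to 9.17 on an untreated array. The means of 4 fibroblast markers were 4.95 to 6.03 and those of 5 epithelial markers 4.02 to 5.53. Of these, COL1A1 (7.29) and DCN (6.05) were above the median gene in their untreated mean. On single untreated arrays DCN reached 8.60 and the epithelial marker EPCAM 9.76. Array medians ran from 4.84 to 5.04.

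At 2 h of the high dose, the transcripts of RFXAP and CIITA were already lower in 6 of 6 lines. Of the 10 members 3 passed the test (limma, Benjamini-Hochberg adjusted p below 0.05 over all genes), 2 lower and 1 higher, against 10.4% of all genes (6.38% lower and 4.03% higher). RFXAP fell by 0.70 ± 0.12 (SE, adjusted p = 0.0025). The differences from the untreated array of the same line ran from -1.24 (FARAGE) through a median of -0.67 to -0.13 (RIVA). CIITA fell by 0.52 ± 0.11 (adjusted p = 0.0080), from -0.94 (NU-DHL-1) through -0.49 to -0.11 (U2932). CD74 rose by 0.19 ± 0.06 (adjusted p = 0.048), higher in 4 of 6 lines, a call that was lost on centring the arrays on their medians (adjusted p = 0.062) and on leaving out FARAGE, OCI-Ly7, SU-DHL-5 or U2932 (0.108 to 0.159). The other 7 members differed by -0.06 to 0.09 and were not called. Levels of treated and untreated lines overlapped for all 10 members at this time.

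At 12 h RFXAP, CIITA and the HLA-DM beta chain HLA-DMB were lower, and the invariant chain CD74 and HLA-DRA were higher. Of the members 5 were called, 3 lower and 2 higher, beside 32.8% of all genes (14.7% lower and 18.2% higher). Their median difference was 0.01, against 0.20 over all genes.

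RFXAP, a subunit of the RFX trimer, showed the largest difference of the members. Its high-dose levels were 3.78 in FARAGE, 4.92 in NU-DHL-1, 2.78 in OCI-Ly7, 2.92 in RIVA and 5.14 in U2932. The untreated levels of the same lines at 12 h were 7.69, 7.27, 9.18, 8.41 and 8.48. Every treated line lay below every untreated one. RFXAP fell by 4.30 ± 0.53 (limma adjusted p = 0.0023), from -6.40 in OCI-Ly7 to -2.35 in NU-DHL-1. The treated levels lay about or below the array medians and may be background, since the values come without detection calls. The sizes of these differences and their order over lines are therefore limited by the floor of the array, and no fold is given. A second RFXAP probe set read lower in 4 of 5 lines, by -0.86 ± 0.32 on average (limma adjusted p = 0.073 over all probe sets), and was called at 2 h (-0.33 ± 0.10, adjusted p = 0.046). The probe sets thus differ in the size of the change by over 3 log2 units, and why was not tested.

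CIITA, the master coactivator of the family, measured 4.91 in FARAGE, 5.13 in NU-DHL-1, 5.84 in OCI-Ly7, 5.25 in RIVA and 4.82 in U2932 at the high dose. Untreated, the same lines measured 7.40, 8.40, 6.83, 6.07 and 6.86. The ranges did not overlap. The mean fall was 1.92 ± 0.36 (adjusted p = 0.0083) and was largest in NU-DHL-1 (-3.27) and FARAGE (-2.49) and smallest in OCI-Ly7 (-0.99) and RIVA (-0.81). The treated levels of the 5 lines spanned 4.82 to 5.84, close to the array medians and to the untreated 12 h level of SU-DHL-5 (5.44), the line with the least CIITA, and the sizes are limited in the same way. The fall rests on 1 probe set: 2 dimmer CIITA probe sets, with mean levels of 5.29 and 4.44 over all arrays, read 0.27 ± 0.18 and 0.14 ± 0.21 higher without being called.

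The other RFX subunits did not pass the test. RFX5, which contacts the X box, differed by -0.48 ± 0.18 (adjusted p = 0.072) and was lower in 5 of 5 lines, from -0.75 (RIVA) to -0.08 (U2932). RFXANK differed by -0.03 ± 0.21, between -0.45 (NU-DHL-1) and 0.37 (U2932).

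HLA-DMB encodes the beta chain of the peptide exchanger HLA-DM. It measured 10.05 in FARAGE, 11.44 in NU-DHL-1, 9.22 in OCI-Ly7, 7.49 in RIVA and 8.71 in U2932 at the high dose, against 10.85, 12.00, 10.35, 9.60 and 9.79 untreated. Each line was below its own control, although the treated and untreated ranges overlapped. The fall was 1.14 ± 0.25 (adjusted p = 0.014), or 2.20-fold, from -2.11 in RIVA to -0.56 in NU-DHL-1. HLA-DMA, its partner chain, differed by 0.12 ± 0.19 (adjusted p = 0.61) and was lower in RIVA (-0.48) but 0.64 higher in U2932. HLA-DOB, the beta chain of HLA-DO, differed by 0.04 ± 0.26, with OCI-Ly7 and U2932 at 0.46 and 0.79 and the other 3 lines at -0.33 to -0.38.

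CD74 moved the other way, except on the poly-A control scale described further on. Its high-dose levels were 11.88 in FARAGE, 13.00 in NU-DHL-1, 12.83 in OCI-Ly7, 11.47 in RIVA and 11.86 in U2932, against 10.53, 12.70, 11.56, 9.94 and 10.61 untreated. It rose by 1.14 ± 0.19 (adjusted p = 0.0054), or 2.20-fold. NU-DHL-1, which had the highest untreated level, differed by only 0.29, while the other 4 lines differed by 1.25 to 1.53. Of 2 much dimmer CD74 probe sets, 1 was called higher by 1.16 ± 0.30 (adjusted p = 0.026) and the other read 0.59 ± 0.19 higher (adjusted p = 0.053).

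HLA-DRA rose by 0.80 ± 0.24 (adjusted p = 0.038), and its second probe set by 0.68 ± 0.21 (adjusted p = 0.045). FARAGE went from 3.93 to 5.48, RIVA from 10.60 to 11.95, U2932 from 12.62 to 13.37 and OCI-Ly7 from 13.15 to 13.65, while NU-DHL-1 read 13.77 untreated and 13.63 treated. The FARAGE level may be background, so that its rise has no measured size. Without FARAGE the mean rise was 0.62. The call was fragile. Leaving out FARAGE, OCI-Ly7, RIVA or U2932 gave adjusted p-values of 0.074, 0.085, 0.123 and 0.102, and centring the arrays on their medians gave 0.066. HLA-DPA1 differed by 0.51 ± 0.21 (adjusted p = 0.092), with FARAGE at 1.23, RIVA at 1.08, U2932 at 0.40, OCI-Ly7 at 0 to 2 decimals and NU-DHL-1 at -0.16. Without NU-DHL-1 it was called, at 0.68 (adjusted p = 0.040). Its other probe sets disagreed, at 0.56 ± 0.25 and -0.85 ± 0.33, neither of them called.

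**Figure D2:**
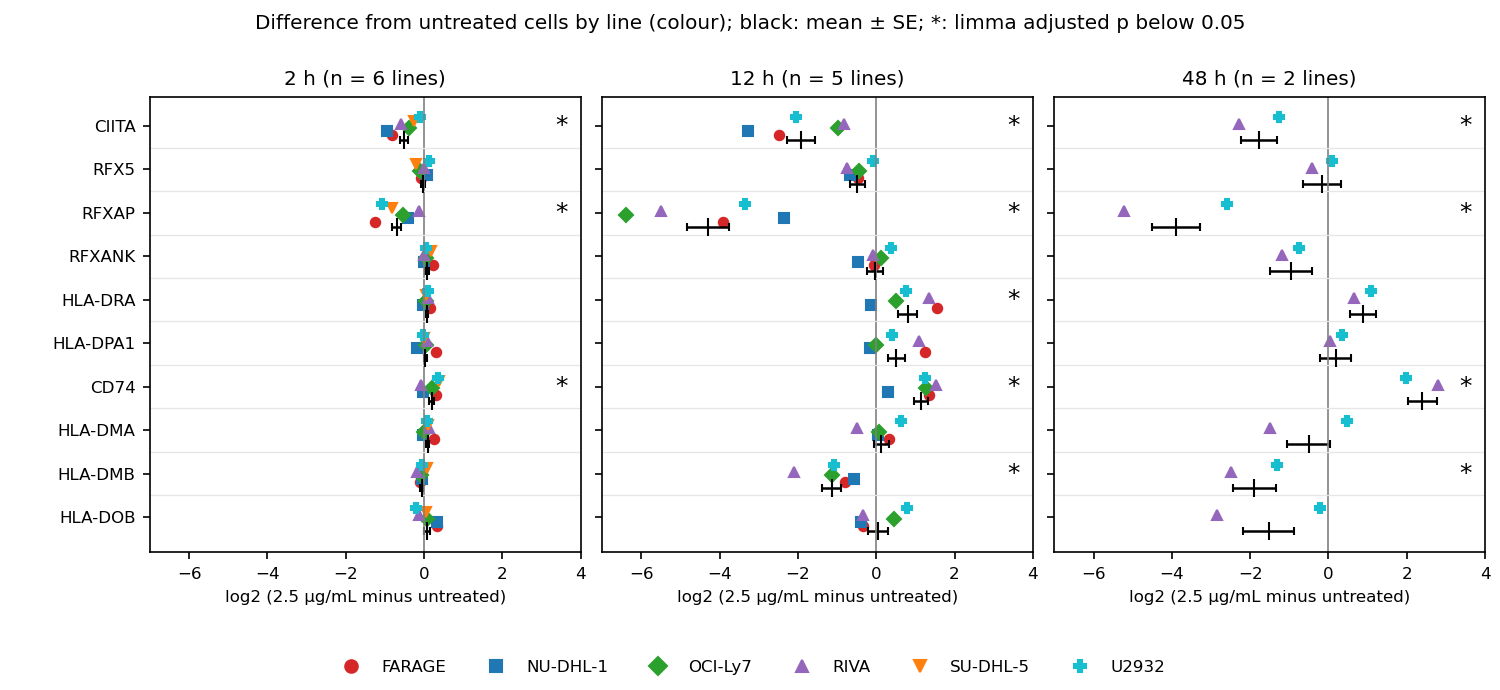
Differences (log2, high dose minus the line's own untreated array at that time) for the 10 members (vertical axis) at 2, 12 and 48 h; coloured symbols are lines, black bars the mean with the limma SE, and stars mark an adjusted p below 0.05. RFXAP, CIITA and CD74 carry a star at all 3 times and HLA-DMB at 12 and 48 h, with RFXAP reaching -6.40 in OCI-Ly7 at 12 h.

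Growth of the effect with time was tested on each line's own 12 h difference minus its 2 h difference. Of the members 5 were called, 3 lower and 2 higher, beside 21.9% of all genes (12.6% lower and 9.29% higher). The difference moved by -3.62 ± 0.58 for RFXAP (limma adjusted p = 0.0050), -1.35 ± 0.33 for CIITA (0.021) and -1.04 ± 0.23 for HLA-DMB (0.015), downward in 5 of 5 lines for each. It moved by 0.99 ± 0.18 for CD74 (0.0084), upward in 5 of 5 lines, and by 0.73 ± 0.23 for HLA-DRA (0.048), upward in 4 of 5. Leaving out 1 line could end the call for CIITA, HLA-DMB and HLA-DRA but not for RFXAP or CD74. For example, without U2932 the adjusted p was 0.075 for CIITA, 0.052 for HLA-DMB and 0.123 for HLA-DRA.

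**Figure D3:**
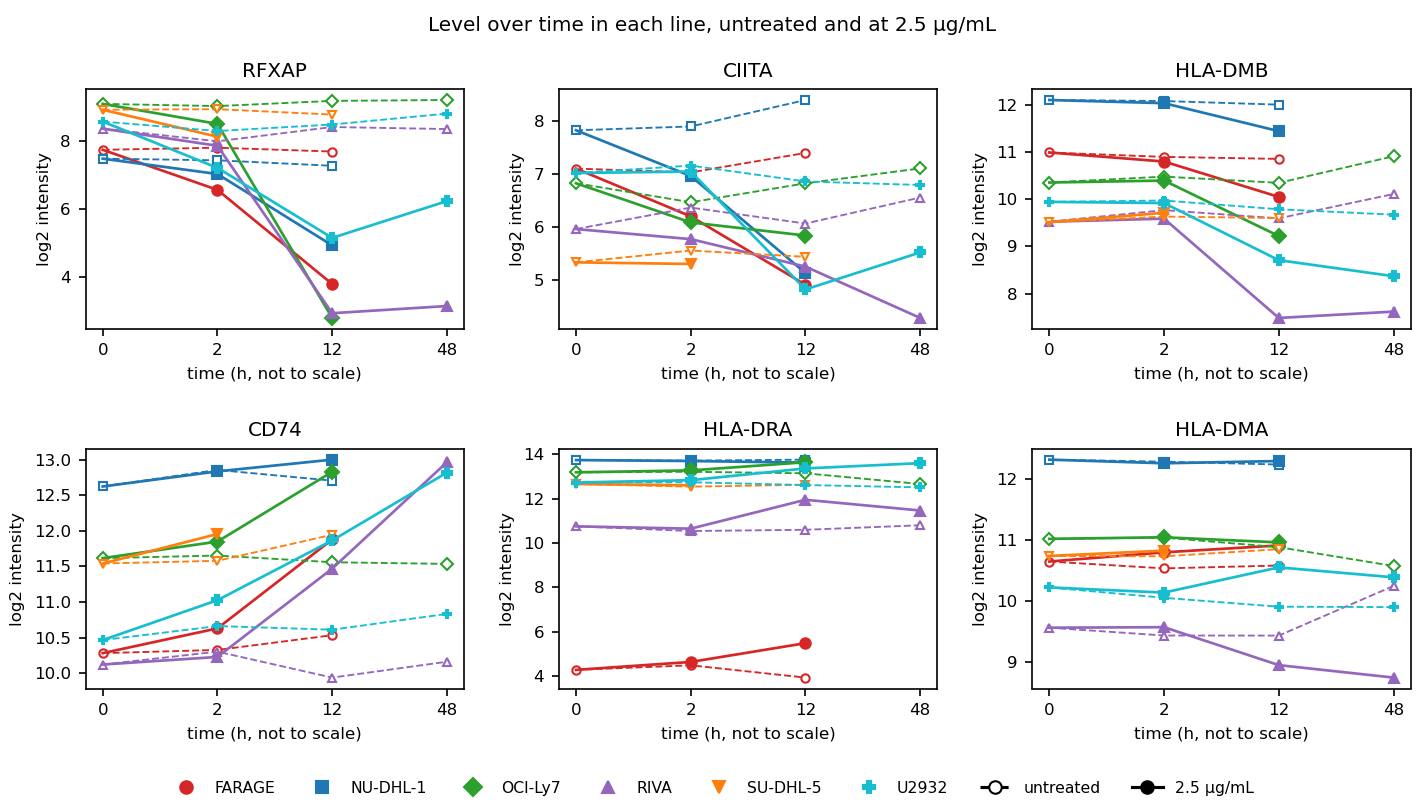
Log2 intensity (vertical axes, own scale per gene) against time for 6 members; dashed lines with open symbols are untreated arrays, solid lines with filled symbols are the high dose from the shared 0 h array on, and colour marks the line. Untreated RFXAP stays between 7.27 and 9.20, while at the high dose it falls to 2.78 to 5.14 at 12 h and CD74 reads 12.96 and 12.82 in RIVA and U2932 at 48 h (its direction turns on the poly-A control scale).

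At 48 h RIVA and U2932 were the only lines with high-dose arrays, and 4 of 10 members were called, 3 lower and 1 higher, beside 13.9% of all genes (8.28% lower and 5.66% higher). RFXAP measured 3.13 in RIVA and 6.22 in U2932, against 8.35 and 8.80 untreated, a difference of -3.90 ± 0.61 (adjusted p = 0.0032). CIITA measured 4.28 and 5.52 against 6.56 and 6.79 (-1.78 ± 0.45, adjusted p = 0.023). HLA-DMB measured 7.62 and 8.37 against 10.11 and 9.67 (-1.90 ± 0.55, adjusted p = 0.038). CD74 measured 12.96 and 12.82 against 10.16 and 10.83, a rise of 2.39 ± 0.37 (adjusted p = 0.0029), or 5.26-fold. All 4 separated treated from untreated arrays without overlap, and so did RFXANK and HLA-DOB, which were not called. With 2 lines a side such separation is easily reached, and it is no result about these members. With 1 residual degree of freedom these p-values rest mostly on variance borrowed from other genes, and without the trend in that variance no member was called. A member that missed the threshold at this time is not shown to be unaltered, since the fit on 2 lines detects little.

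The remaining members at 48 h were not called. HLA-DRA measured 11.47 and 13.61 against 10.80 and 12.51 (0.88 ± 0.33, adjusted p = 0.093). RIVA and U2932 differed from each other for HLA-DOB (-2.85 and -0.21) and HLA-DMA (-1.50 and 0.49), while RFXANK was lower in both (-1.18 and -0.75). In untreated cells between 0 and 48 h, HLA-DOB read 0.79 ± 0.18 higher (adjusted p = 0.30) and RFXANK 0.55 ± 0.18 lower (adjusted p = 0.33) over 3 lines, neither of them called.

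No member was called at the low dose at 2, 12 or 48 h, where limma called 0% of all genes at each time. At an unadjusted p below 0.05 there were 809, 1481 and 1465 of the 19775 genes and 0, 2 and 0 of the members. The members' mean differences ran from -0.08 to 0.10 over the 3 times. RFXAP differed by 0.04 ± 0.05 at 2 h, -0.08 ± 0.05 at 12 h and 0.04 ± 0.07 at 48 h, and CIITA by -0.04 ± 0.07 at 12 h. Set directly against the low dose at 12 h, the high dose gave 5 called members, beside 29.1% of all genes (14.3% lower and 14.8% higher): RFXAP (-4.19 ± 0.55, adjusted p = 0.0027), CIITA (-1.85 ± 0.40, 0.014), HLA-DMB (-1.19 ± 0.26, 0.013), CD74 (1.07 ± 0.19, 0.0071) and HLA-DRA (0.74 ± 0.23, 0.042). This comparison shares its high-dose arrays with the one against untreated cells. At 2 h it called RFXAP, CIITA and CD74, beside 10.2% of genes (5.99% lower and 4.22% higher), and at 48 h those 3 and HLA-DMB, beside 18.6% (11.2% lower and 7.36% higher). Untreated arrays at 2, 12 and 48 h against 0 h gave 0 called members, beside 0.622%, 0.0152% and 0% of genes, with 2835, 2049 and 2552 genes and 1, 2 and 2 members at an unadjusted p below 0.05.

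All these directions are relative to the bulk of genes on an array, since the deposited values were quantile normalized. On average over lines, poly-A control transcripts read brighter at the high dose than without drug. By the median of their probe sets, the mean rise over lines was 0.141 ± 0.131 (SD, 6 lines) at 2 h. It was 1.87 ± 0.562 (5 lines) at 12 h and 3.25 ± 0.366 (2 lines) at 48 h. The scaling used the mean of these probe sets instead. That shift was larger at 2 h, where the median gene moved from 0.02 to -0.28. With arrays scaled to these controls, the median gene at 12 h moved from 0.20 to -1.59, and to -0.46 with arrays scaled to the hybridization controls. RFXAP, CIITA and HLA-DMB were lower and called on all 4 scales at 12 and 48 h. The direction of the rises depended on the scale. At 12 h CD74 stood at 1.03 on array medians, 0.48 on the hybridization controls and -0.65 on the poly-A controls, called only on the first of these. HLA-DRA stood at 0.70, 0.15 and -0.98, called only on the last, as lower. Each scaling moves all genes of an array by 1 value, so that the place of CD74 and HLA-DRA above the median gene is the same on all scales by construction. On the poly-A scale 9 of 10 members were called lower at 12 h, beside 19106 of the 19775 genes, so that this count repeats 1 shift per array.

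**Figure D4:**
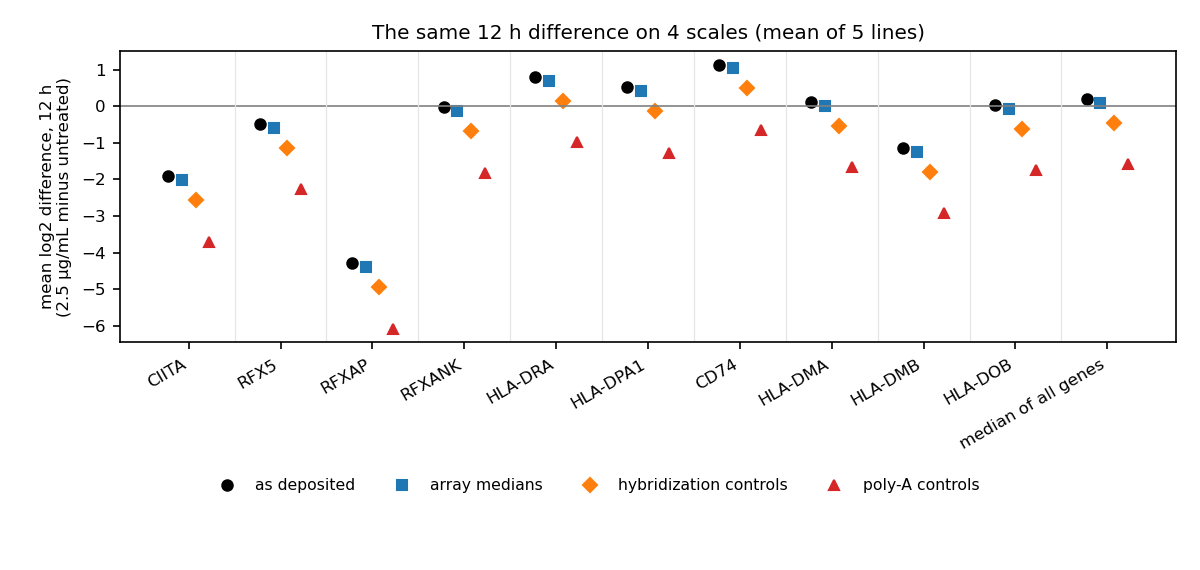
Mean 12 h difference (log2, high dose minus untreated, 5 lines) of each member and of the median gene on the deposited scale (black), after centring on array medians (blue), and after scaling to hybridization (orange) or poly-A controls (red). Every gene shifts by the same amount between scales: CD74 goes from 1.14 to -0.65 and RFXAP stays below -4 on all of them.

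Partners of the members were read from 5 lists of related genes. Over all genes the high dose called 6.38% lower and 4.03% higher at 2 h, and 14.7% lower and 18.2% higher at 12 h. These shares are on the deposited scale. At 12 h nearly all genes were called lower on the poly-A controls. On the hybridization controls far more genes were lower than higher. Lower calls on these controls, in each list that follows, therefore carry a shift shared by all genes. Of the other class II chains 7 of 10 were measured. At 2 h none was called, with HLA-DPB1 at 0.16 ± 0.05, HLA-DOA at 0.09 ± 0.07, HLA-DRB1 at 0.05 ± 0.05 and HLA-DQB2 at -0.12 ± 0.09, and at 12 h 3 rose and none fell. HLA-DRB1 rose by 0.80 ± 0.21 (limma adjusted p = 0.025, 5 of 5 lines), HLA-DQB1 by 0.87 ± 0.27 (0.040) and HLA-DPB1 by 0.88 ± 0.27 (0.041). HLA-DRB4 differed by 0.63 ± 0.29 without a call. The median of the 7 was 0.68 against 0.20 for all genes. On array medians 1 of the 7 was called higher (HLA-DRB1), on the hybridization controls none was called, and on the poly-A controls all 7 were called lower, with a median of -1.11.

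The factors that bind with RFX and CIITA at class II promoters are given next. Of 10 measured, 4 fell and 1 rose at 2 h (6.38% and 4.03% of all genes), 7 fell and none rose at 12 h (14.7% and 18.2%), and 1 fell and none rose at 48 h (8.28% and 5.66%). NFYA, a subunit of the Y box factor, fell by 0.75 ± 0.09 at 2 h (adjusted p = 0.0003) and 1.48 ± 0.39 at 12 h (0.026). CREB1, which binds the X2 box, fell by 0.33 ± 0.05 and 1.45 ± 0.39. The acetyltransferases CREBBP and EP300 fell by 0.33 ± 0.06 and 0.29 ± 0.08 at 2 h and by 1.07 ± 0.32 and 1.31 ± 0.38 at 12 h. NFYB rose by 0.21 ± 0.05 at 2 h and fell by 0.90 ± 0.28 at 12 h; the 2 h call was lost on the hybridization controls and the direction turned on the poly-A controls (-0.095, not called). SMARCA4, the ATPase BRG1, fell by 0.62 ± 0.18 at 12 h. On array medians, hybridization controls and poly-A controls 7, 8 and 10 of the 10 were called lower at 12 h and none higher. The poly-A count is near the share of all genes on that scale and is no result about these factors.

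Of 13 measured regulators of CIITA, 3 fell and 1 rose at 2 h (6.38% and 4.03% of all genes), and 5 fell and none rose at 12 h (14.7% and 18.2%). At 48 h 2 fell and none rose (8.28% and 5.66%). IRF2 fell by 0.52 ± 0.07 at 2 h (adjusted p = 0.0005) and 1.59 ± 0.33 at 12 h (0.012). PAX5, a B-cell identity factor, fell by 0.28 ± 0.04 and 0.84 ± 0.15. IRF1, which mediates interferon induction of CIITA, rose by 0.69 ± 0.15 at 2 h. JAK2 fell by 0.37 ± 0.09 at 2 h, and IRF8 and SOCS1 fell by 1.06 ± 0.27 and 1.44 ± 0.46 at 12 h. At 12 h, on the same 3 other scales, 5, 9 and 13 of the 13 were lower and none higher. The poly-A count is again near the share of all genes on that scale. Of the 6 measured B-cell markers 5 fell at 12 h, beside 14.7% of all genes. PAX5, counted above as a regulator of CIITA, was among them. CD79A read 0.31 ± 0.21 higher without a call. At 2 h, when CIITA was already called lower, 1 of the 6 was called lower (PAX5), beside 6.38% of all genes. The mean of the 6 per array was 9.35 to 11.2 over the high-dose arrays of all times, against 10.4 to 11.6 untreated. The part of these markers in the CIITA result was not tested.

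Of 14 measured genes of lysosomal processing and class II turnover, 1 rose at 2 h (CTSD, by 0.31 ± 0.09) and 3 rose at 12 h, shares near the 4.03% and 18.2% of all genes that rose. At 48 h 1 rose and 1 fell (5.66% and 8.28% of all genes). The CTSD call was lost on each of the other 3 scales. The genes that rose at 12 h were the protease cathepsin B (CTSB, by 1.47 ± 0.23), the membrane protein LAMP1 (by 0.60 ± 0.15) and SPPL2A, which cleaves the CD74 remnant (by 0.62 ± 0.18). On array medians 2 were called higher (CTSB and LAMP1), on the hybridization controls none was higher and 5 of the 14 were lower, and on the poly-A controls 13 were lower. MARCHF1, a ubiquitin ligase for class II, differed by -0.67 ± 0.28 without a call, as did at 2 h the cathepsins CTSH (-0.12 ± 0.04) and CTSZ (0.14 ± 0.07) and the ligase MARCHF8 (-0.15 ± 0.06). The class I pathway served for comparison, with 5 of 15 measured genes higher at 2 h (4.03% of all genes) and none lower. At 12 h 6 of them were higher (18.2%) and 1 was lower (14.7%), and at 48 h 5 were higher (5.66%) and none lower. HLA-B rose by 0.18 ± 0.03 at 2 h and 0.91 ± 0.15 at 12 h, HLA-C by 0.17 ± 0.03 and 0.87 ± 0.12, and the peptide transporter TAP1 by 0.25 ± 0.06 and 1.55 ± 0.23. HLA-F rose by 0.19 ± 0.04 at 2 h. On the poly-A controls no class I gene was higher at 2 h and 4 were lower. The 12 h count of higher class I genes was again 6 on array medians, but 1 (TAP1) on the hybridization controls and 0 on the poly-A controls, where 12 were lower. The lower one was NLRC5, the class I counterpart of CIITA in the same protein family. It fell by 1.97 ± 0.28 (adjusted p = 0.0035) in 5 of 5 lines, next to 1.92 ± 0.36 for CIITA, and was called lower on all 4 scales.

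Markers of other class II-bearing cells were read beside the rises of HLA-DRA and CD74. At 12 h CD14 and CSF1R of the 5 measured myeloid markers rose, CD14 by 1.69 ± 0.21. Over the high-dose arrays of all times, CD14 reached at most 8.77. The mean of the 5 per array was 4.53 to 5.77 over the same arrays and stayed below the median gene's 5.83. CD3D and CD5 of 5 T-cell markers rose as well (0.75 ± 0.20 and 0.69 ± 0.21), and so did 2 of 5 epithelial and none of 4 fibroblast markers. Over all genes 18.2% were called higher at 12 h. On the poly-A controls none of these markers was called higher. Their part in the class II values was not tested.

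Within lines, after each line's mean was removed, the 49 arrays gave Pearson's r of 0.891 between RFXAP and HLA-DMB, -0.844 between RFXAP and CD74, and 0.818 between HLA-DRA and HLA-DPA1. These arrays share lines and doses, and the values are descriptions. The genes outside the members whose pattern over the 49 arrays was most like RFXAP were DENND6A (r = 0.965), PARP2 (0.947), RBSN (0.946), MOB4 (0.946) and SMARCAD1 (0.940). For CIITA they were TMBIM4 (0.886), LRRC8C (0.837), INPP4A (0.820), CYTIP (0.818) and LAT2 (0.802). For HLA-DRA they were GLA (0.960), TRIM44 (0.953), FBXO11 (0.910), MSH6 (0.910) and KRT10-AS1 (0.898). The HLA-DRA values rest on FARAGE: over the 42 arrays of the other lines r was 0.719, 0.504, -0.245, -0.163 and 0.629 in the same order.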

How the data were processed

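RNA of the 49 samples was labelled with a 3′ in vitro transcription kit, per the labels' protocols, and hybridised to Affymetrix arrays with 54675 probe sets. The deposited values are log2 intensities, made with RMA (affy, R 3.0.2), per the submitters' processing notes. Quantile normalization, which RMA includes, makes values relative to the bulk of genes. They ran from 1.71 to 14.8, and 0 deposited columns lacked a sample. Arrays give no counts, so that their number limits the precision.

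The platform annotation named 1 gene for 41097 probe sets, several for 1801 and none for 11777. The gene identifier of 41043 was found in RefSeq (GRCh38.p14), also the source of the promoter windows. Each comparison was fitted with limma 3.58.1 (R 4.3.3, data.table version 1.17.8), with line as a block and a variance trend, on lines with both arrays. P-values were adjusted over 19775 genes. The labels' cell line gives the pairing. The fits were tested on simulated data, where the 48 h high-dose fit missed changes that the 2 and 12 h fits recovered. From each companion list the 4 genes lowest in adjusted p at 2 h, and likewise at 12 h, were named; like patterns were the 5 highest correlations. Members, lists and tests were chosen with earlier results of these data known. Poly-A scaling used 24 control probe sets, hybridization scaling 18. The high against low dose comparison and the fit over all probe sets were added after seeing the data.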

Additional observations from a re-analysis of the deposited data

Results flagged for a closer look

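Of 100 sets of 5 or 6 lines tested with Dixon's 95% criterion, 7 held a line far from the others, and chance marks about 1 in 20. FARAGE had an untreated HLA-DRA level of 4.23, with the nearest line at 10.63. Its HLA-DRA differed by -0.411 at the low dose at 2 h (others -0.08 to 0.05) and by 0.562 between high and low dose at 2 h (others 0.01 to 0.18). Both use the same low-dose array, and HLA-DRA in FARAGE is at a level that may be background. NU-DHL-1 stood apart for CD74 at 12 h, at 0.295 against untreated cells (others 1.25 to 1.53) and at 0.198 against the low dose (others 1.10 to 1.44). For HLA-DOB, NU-DHL-1 differed by -0.186 between 0 and 2 h untreated (others 0.03 to 0.09) and RIVA by -0.0288 at the low dose at 12 h (others 0.05 to 0.08).

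The high-dose difference itself changed between 2 and 12 h, by limma, for RFXAP (-3.62), CIITA (-1.35), HLA-DMB (-1.04), CD74 (0.986) and HLA-DRA (0.725).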

How the results depend on the processing

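Of the differences of single members recomputed under other settings, 1519 kept their side of the threshold, 99 kept direction but lost the call and 61 gained one. A turn of sign was counted only where either value was called. There were 31 such turns, 21 with poly-A scaling and 10 with another probe set of the gene. Turns of sign between uncalled values are among the 1519. For example, HLA-DMA at 12 h of the high dose fell to -0.005 on leaving out 1 line. On the poly-A scale CD74 turned to -0.11, -0.65 and -0.85 at 2, 12 and 48 h of the high dose, HLA-DRA to -0.98 and -2.36 at 12 and 48 h, HLA-DPA1 to -1.27 and -3.05, and HLA-DMA and HLA-DOB at 12 h to -1.66 and -1.74. Against the low dose, CD74 turned to -0.11, -0.89 and -0.87, HLA-DRA to -1.22 and -2.29 and HLA-DPA1 to -1.49 and -3.02 at the same times, and HLA-DMA at 12 h to -1.90. The change from 2 to 12 h turned to -0.48 for CD74, -0.74 for HLA-DRA, -1.43 for HLA-DMA and -0.995 for HLA-DPA1. Other probe sets turned CD74 at 2 h to -0.035 (-0.13 against the low dose), HLA-DPA1 at 2 h against the low dose to -0.22, CIITA at 12 h to 0.27 and 0.14 (0.067 and 0.22 against the low dose) and CIITA at 48 h to 0.53 (0.91 and 0.17 against the low dose). The poly-A scale adds 1 value per array to every gene; the cause of the probe set differences was not tested.

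Counts of called members moved as follows. Calls lost or gained that were given with the genes above, such as HLA-DRA at 12 h and CD74 at 2 h, are not all repeated. With poly-A scaling the high dose had 9 in place of 5 at 12 h and 9 in place of 4 at 48 h. The low dose had 8 in place of 0 at 12 h, all higher. The same scaling led to 1, 2 and 4 for untreated cells at 2, 12 and 48 h, to 10 and 9 against the low dose at 12 and 48 h, and to 8 for the change with time. Poly-A scaling moves every gene of an array by 1 value. The member counts on that scale therefore carry a shift shared by all genes and are not results about the members, at the low dose included. A joint fit of all arrays gave 0 at 2 h, 7 at 48 h, 2 for untreated cells at 48 h, and 0 and 7 against the low dose at 2 and 48 h. Over all genes the joint fit likewise called far fewer at 2 h and far more at 48 h, as given below. The mean of a gene's probe sets gave 1 at 2 h against either control. Without the variance trend there were 0 at 48 h, and 1 at 2 h against the low dose. Leaving out 1 line gave 3 to 5 at 12 h against the low dose (3 without OCI-Ly7 or U2932) and 2 to 6 for the change with time (2 without U2932). Counts over all genes under these settings are given below only for the high dose against untreated cells. For the other comparisons the member counts have no such share beside them and are not results about the members.

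The pairing comes from the cell line. With no replicate block, the count of called members at 2, 12 and 48 h was 0, 2 and 0 against untreated cells and 0, 2 and 0 against the low dose; a block did not apply to the change with time, and changed no other count.

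Counts over all genes moved too, here for the high dose against untreated cells. At 2 h, 2057 became 1368 without U2932, 1004 without the trend, 52 in the joint fit, 7600 on the poly-A scale and 0 with no replicate block. At 12 h, 6494 became 2367 without RIVA, 2588 without OCI-Ly7, 2702 without U2932, 4096 among genes above the median level, 2867 with no replicate block, 13100 in the joint fit and 19138 on the poly-A scale. The split of 3591 higher and 2903 lower at 12 h became 1793 and 3109 on array medians and 206 and 6839 on the hybridization controls. At 48 h, 2757 became 9 without the trend, 0 with no replicate block, 11067 in the joint fit, 5409 on the hybridization controls and 19264 on the poly-A scale.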
